A study of Rattus norvegicus with 6 samples.

Results

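The Acsm genes encode medium-chain acyl-CoA synthetases and Glyat encodes glycine N-acyltransferase. They were taken as every probe set whose platform annotation held a symbol starting with Acsm or equal to Glyat. This gave 5 genes with 1 probe set each, of 14217 genes with a probe set of their own. The members are Acsm2 (1370436_at), Acsm5 (1377407_at), Acsm1 (1384499_at), Acsm3 (1383303_at) and Glyat (1391652_at). The family was picked out with a higher Acsm2 signal in treated livers already known, so the differences of these 5 genes between the groups are given as descriptions and not as tests.

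Liver RNA of 3 rats fed a diet with epsilon-momfluorothrin, a pyrethroid insecticide, for 2 weeks and of 3 rats fed the control diet (0 ppm) for the same time was hybridised to Affymetrix rat expression arrays, 1 array per animal. All 6 were male BrlHan:WIST@Jcl(GALAS) rats, aged 4 weeks at purchase, kept in quarantine for 1 week and aged 7 weeks when the livers were taken. A single dose was fed, and the labels disagree on it: 3000 ppm stands in the titles and the treatment protocol, 5000 ppm in the other fields.

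Acsm enzymes sit in the mitochondrial matrix and join coenzyme A to medium-chain fatty acids and to small aromatic acids such as benzoate and salicylate. Glyat then transfers the activated acyl group to glycine, which frees the coenzyme A and yields conjugates such as hippurate that the kidney excretes. Liver and kidney are the main sites of this pathway, which disposes of aromatic acids from the diet, from gut bacteria and from drugs.

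The 4 Acsm genes with a probe set lie in 1 cluster on chromosome 1, in the order Acsm5, Acsm2, Acsm1, Acsm3 in the rat gene table of assembly GRCr8. The gene table also places Acsm4 between Acsm1 and Acsm3, but Acsm4 had no probe set and was not measured. Glyat lies on the same chromosome outside the cluster. Of the 5 genes, 4 were matched in the RefSeq promoter table of GRCr8, which gives 250 bases before and 50 bases after each gene's start. These 4 promoters are printed so that the sequences of neighbouring genes with different measured values can be seen side by side. Capitals mark exact matches, on either strand, to AGGTCA, the half-site of many nuclear receptors, or to GTTAAT, a half-site of the liver factor HNF1.
Acsm5, chr1:183302259-183302558, strand +: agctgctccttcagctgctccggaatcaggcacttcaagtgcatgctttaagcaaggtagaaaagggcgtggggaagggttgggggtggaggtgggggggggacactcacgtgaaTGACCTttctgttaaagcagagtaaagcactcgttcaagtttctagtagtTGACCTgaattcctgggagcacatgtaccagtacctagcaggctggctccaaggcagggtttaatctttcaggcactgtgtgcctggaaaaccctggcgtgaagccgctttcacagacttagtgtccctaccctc
Acsm2, chr1:183347455-183347754, strand +: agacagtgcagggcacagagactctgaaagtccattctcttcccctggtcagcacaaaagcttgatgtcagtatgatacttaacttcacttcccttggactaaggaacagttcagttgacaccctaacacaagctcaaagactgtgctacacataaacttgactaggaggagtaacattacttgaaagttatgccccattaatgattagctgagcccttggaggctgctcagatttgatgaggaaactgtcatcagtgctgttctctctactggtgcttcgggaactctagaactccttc
Acsm1, chr1:183416802-183417101, strand +: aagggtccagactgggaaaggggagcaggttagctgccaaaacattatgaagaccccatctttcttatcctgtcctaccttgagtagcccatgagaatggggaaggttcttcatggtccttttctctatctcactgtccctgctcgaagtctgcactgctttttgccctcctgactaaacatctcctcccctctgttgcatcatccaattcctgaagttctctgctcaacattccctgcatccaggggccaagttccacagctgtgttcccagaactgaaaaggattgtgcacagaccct
Acsm3, chr1:183564402-183564701, strand +: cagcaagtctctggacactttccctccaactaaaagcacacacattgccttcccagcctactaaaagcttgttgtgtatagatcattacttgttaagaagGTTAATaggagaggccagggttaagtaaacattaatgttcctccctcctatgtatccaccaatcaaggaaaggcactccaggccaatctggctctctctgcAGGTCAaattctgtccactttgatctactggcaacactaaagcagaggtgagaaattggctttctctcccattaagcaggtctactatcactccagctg

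The Acsm5 promoter held AGGTCA in 2 places, both on the reverse strand, from -135 to -130 and from -85 to -80 relative to the start. The Acsm3 promoter held AGGTCA once on the forward strand, from -49 to -44, and GTTAAT once, from -150 to -145. The matches did not overlap one another. In the Acsm2 and Acsm1 windows neither motif was present. Of 33469 rat promoters of the same length, 16.2% held AGGTCA and 7.45% held GTTAAT. The paired forms AGGTCANAGGTCA (0.0538% of all promoters) and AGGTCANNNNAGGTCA (0.00598%), and TATAAA (14.2%), were in none of the 4 windows. A match describes the letters only, and the arrays did not measure binding.

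Among the synthetases, Acsm2 was higher after momfluorothrin by the most, with Acsm5 next, while the Acsm1 and Acsm3 signals of the groups overlapped. The difference of the conjugating enzyme Glyat lay between those of Acsm5 and Acsm1. Signals are linear and in arbitrary units that can be compared across arrays within a probe set but not across probe sets, so the levels of the 5 genes are not ranked against each other. On all 6 arrays each of the 5 probe sets exceeded the array median, so all 5 passed the filter on dim signals. Precision is limited by the number of arrays.

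Acsm2, whose human counterparts activate medium-chain fatty acids and benzoate, had signals of 111, 149 and 145 in momfluorothrin replicates 1 to 3, against 57.9, 44.3 and 65.6 in control replicates 1 to 3. The lowest treated value was well above the highest control value, and treated replicate 1 was the lowest of its group. The means were 135 ± 20.8 in treated and 56.0 ± 10.8 in control livers (SD, n = 3 each), and the log2 difference was 1.28 ± 0.18 (SE), a fold of 2.42. Its 95% interval ran from 0.86 to 1.69. In all, 38 of the 15778 probe sets tested had a larger positive difference, or 0.241%. The control signals of Acsm2 lay between 1.55 and 2.23 times the median of their array.

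Acsm5, a less studied member of the family, had signals of 447, 402 and 536 in momfluorothrin livers and 335, 324 and 240 in control livers. The groups did not overlap, with treated replicate 3 the highest and control replicate 3 the lowest of the 6. The means were 462 ± 68.2 and 300 ± 52.0 (SD, n = 3 each), and the log2 difference was 0.63 ± 0.15 (SE, 95% interval 0.28 to 0.98).

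Acsm1, whose older name Bucs1 refers to butyryl-CoA synthetase activity, had signals of 4610, 4252 and 4858 in momfluorothrin livers and 4573, 4510 and 4894 in control livers. Treated replicate 2 was the lowest and control replicate 3 the highest, and the groups overlapped over most of their range. The means were 4573 ± 304 and 4659 ± 206 (SD, n = 3 each), with a log2 difference of -0.03 ± 0.08 (SE, 95% interval -0.20 to 0.14).

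Acsm3, the SA gene once studied as a hypertension candidate in rats, had signals of 642, 538 and 526 in momfluorothrin livers and 674, 603 and 494 in control livers. The highest and the lowest value both came from control arrays. The means were 568 ± 63.9 and 590 ± 90.6 (SD, n = 3 each), with a log2 difference of -0.05 ± 0.13 (SE, 95% interval -0.35 to 0.25).

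Glyat, which completes glycine conjugation, had signals of 826, 760 and 927 in momfluorothrin livers and 672, 720 and 580 in control livers. The groups did not overlap, although treated replicate 2 and control replicate 2 lay close together. The means were 838 ± 84.3 and 658 ± 70.9 (SD, n = 3 each), with a log2 difference of 0.35 ± 0.11 (SE, 95% interval 0.10 to 0.60). Acsm5 and Glyat put the arrays in nearly the same order, with treated replicate 3 at the top, treated replicates 1 and 2 next and control replicate 3 at the bottom. In Acsm2 the order within each group was different, with treated replicate 2 and control replicate 3 at the top of their groups.

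**Figure D1:**
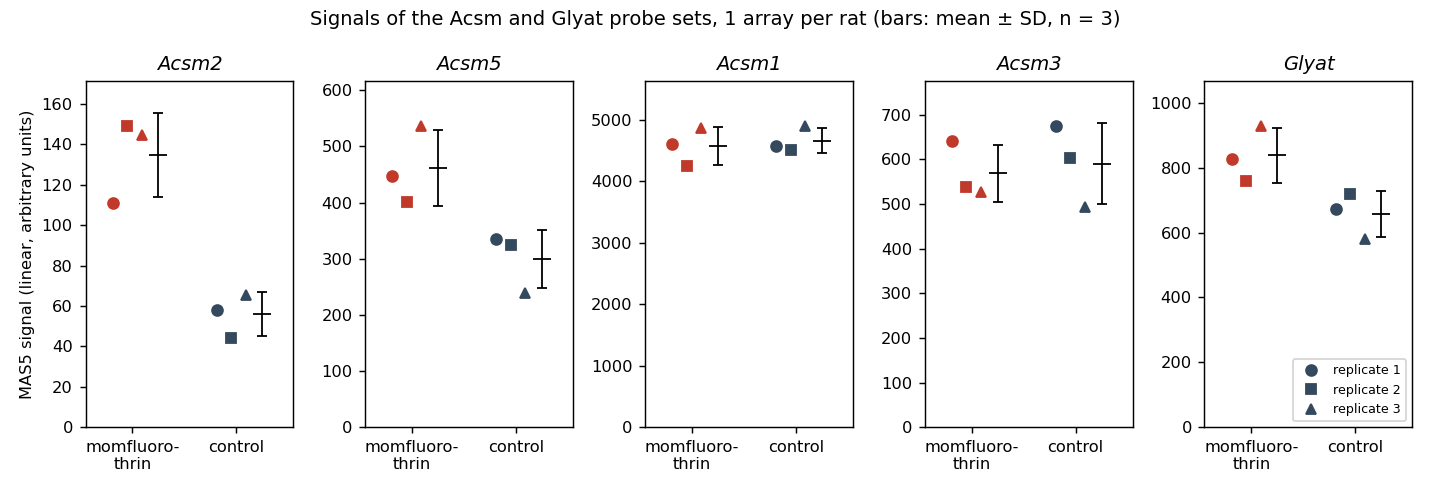
MAS5 signal (linear scale from 0, 1 panel per gene) on each array, momfluorothrin in red and control in dark blue, marker shape giving the replicate number and black bars the mean ± SD of 3 arrays. The 3 treated arrays lie above the 3 control arrays for Acsm2, Acsm5 and Glyat, and the groups overlap for Acsm1 and Acsm3.

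Of the 5 genes, 1, Acsm2, was past the threshold of 0.05 on the adjusted p in the limma fit across all probe sets, where 0.133% of the 15778 probe sets were past it and higher and 0.171% in either direction. The treated arrays lay wholly above the control arrays for 3 of the 5, against 7.4% of all probe sets tested, and wholly below them for 0, against 10.4%. The median log2 difference was 0.35 over the 5 genes and -0.03 over all probe sets tested. The 5 genes were chosen on this same comparison, so nothing is read from these shares. The Acsm2 call was close to the threshold: it held in 5 of the 9 other ways of processing all 6 arrays and in 0 of the 6 fits that left out 1 array, although the log2 difference stayed between 1.07 and 1.45 in all 15.

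**Figure D2:**
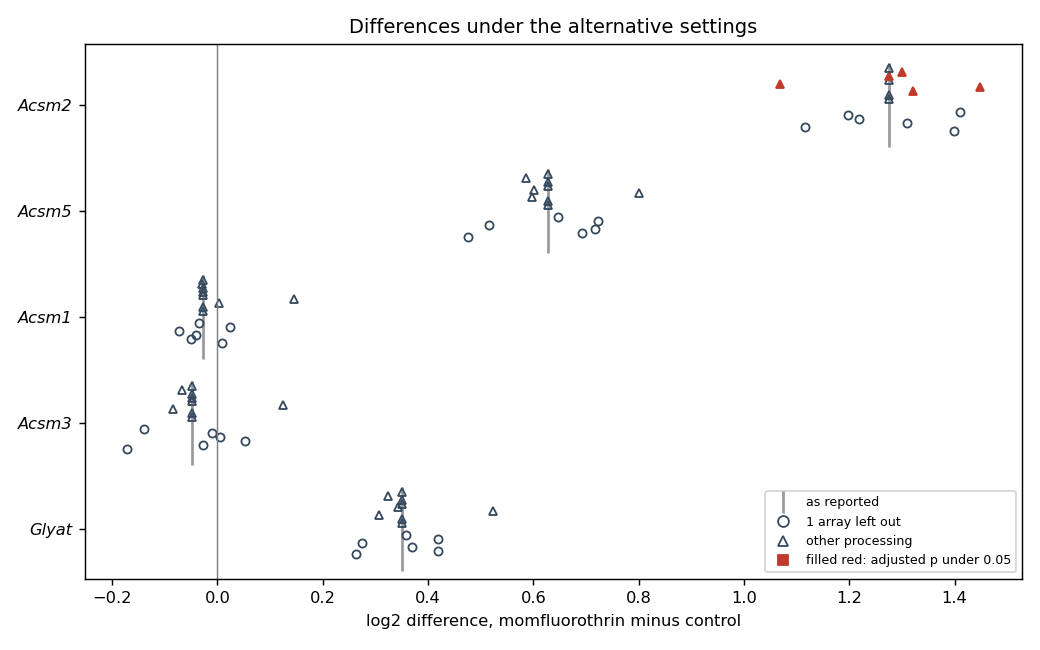
Log2 difference (momfluorothrin minus control) of each gene as reported (grey line), with 1 array left out (circles) and under other processing of all 6 arrays (triangles); filled red marks are past the threshold on the adjusted p, and vertical spread within a gene only separates the marks. Acsm2, Acsm5 and Glyat stay above 0 in all 15 alternatives, Acsm1 and Acsm3 fall on both sides of 0, and filled marks occur for Acsm2 in 5 of them.

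A ratio of signals within an array does not depend on the factor by which that array was scaled, although quantile normalization can change it. Relative to Acsm1 on the same array, and with the control mean set to 0, the Acsm2 ratio was 1.02 to 1.56 on the log2 scale in momfluorothrin livers and -0.27 to 0.18 in control livers. For Acsm5 the ratio was 0.57 to 0.79 in momfluorothrin livers and -0.38 to 0.20 in control livers. For Glyat it was 0.35 to 0.44 in momfluorothrin livers, a narrower spread than the -0.25 to 0.18 of control livers. The Acsm3 ratio overlapped between the groups, at -0.22 to 0.15 in momfluorothrin and -0.32 to 0.23 in control livers. For Acsm2, Acsm5 and Glyat the ratio in all 3 treated animals exceeded that in all 3 control animals, whatever factor scales each array.

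**Figure D3:**
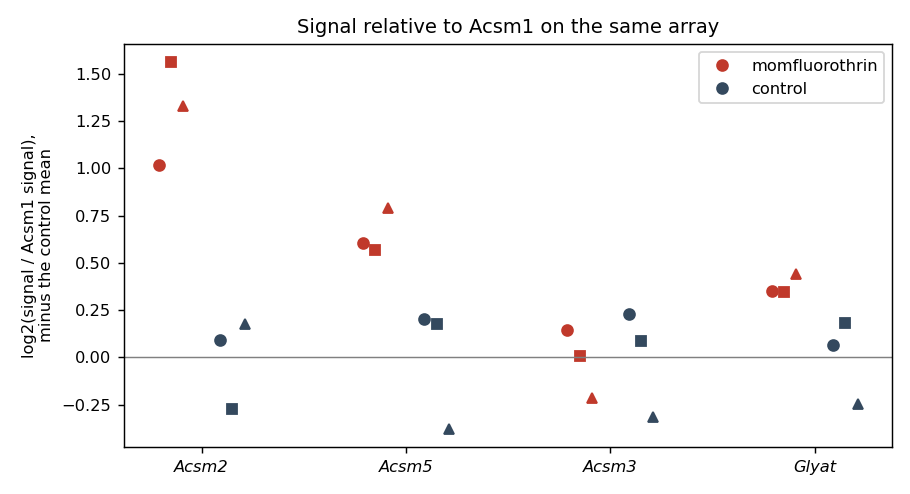
Log2 ratio of each gene's signal to the Acsm1 signal of the same array, minus the control mean, 1 mark per array with momfluorothrin in red, control in dark blue and marker shape giving the replicate. All 3 treated ratios exceed all 3 control ratios for Acsm2 (at least 1.02), Acsm5 (at least 0.57) and Glyat (at least 0.35), and not for Acsm3.

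The arrays shared a trimmed mean of about 100 and correlated at 0.958 to 0.974, but all 3 treated medians lay below all 3 control medians. The array median was 25.2 ± 1.83 in momfluorothrin and 28.3 ± 1.18 in control livers (SD, n = 3 each, exact permutation p = 0.1, 2-sided, the smallest that 3 against 3 allows). Setting the medians equal moved all log2 differences up by 0.17, which turned Acsm1 and Acsm3 positive. Relative to the median of all probe sets Acsm1 differed by 0.0065 and Acsm3 by -0.014 under either scaling, and Acsm2, Acsm5 and Glyat by 1.31, 0.66 and 0.38.

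In a piece of liver, fewer cells of a type and less RNA per cell cannot be told apart. All 7 hepatocyte markers measured were above the array median, with a summed signal of 56941 to 65664 in momfluorothrin and 63595 to 70733 in control livers. None of the 7 passed the threshold (limma, adjusted p of at least 0.304), but with the deposited scaling all 7 had negative log2 differences, with a median of -0.13, smaller in size than the 0.17 by which equal array medians would raise them. Ttr (-0.15) and Serpina1 (-0.22) lay wholly below control. The 4 kidney markers Umod, Slc12a1, Nphs1 and Aqp2, from the other main site of these enzymes, stayed at or below the array median on all 6 arrays. Of the 4 cholangiocyte markers, 3 were measured and 2 exceeded the array median on at least 1 array. Their summed signal was 143 to 167 in momfluorothrin and 87.6 to 111 in control livers, mostly from Epcam, and the groups did not overlap. Epcam alone passed the filter on dim signals, with a log2 difference of 0.63 (limma adjusted p = 0.220), so this separation rests on 1 gene. The 5 endothelial markers summed to 2413 to 2608 in momfluorothrin and 2086 to 2420 in control livers, so the sums overlapped only narrowly, and single markers had opposite signs. Lyve1 lay wholly above control (log2 difference 0.31) and Eng wholly below it (-0.45), without passing the threshold (limma adjusted p = 0.429 and 0.222). Kupffer cell, stellate cell, blood and pancreas marker sums overlapped between the groups. The overlap was narrow for Kupffer cells, at 739 to 816 in momfluorothrin and 788 to 975 in control livers. It was also narrow for pancreas, at 382 to 533 and 508 to 629. Clec4f (log2 difference -0.33) and Cela1 (-0.35) did not pass the threshold (limma adjusted p = 0.419 and 0.423). Of 4 Kupffer cell markers, 1 was positive. The stellate cell, blood and pancreas sums came mostly from Col3a1, Hbb and Cela1. The part of any of these cells in the Acsm2, Acsm5 and Glyat differences was not tested.

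Acsm5 and Acsm2, the Acsm genes with the higher treated signals, are adjacent at 1 end of the cluster. Of the 17 other protein-coding genes within 500 kb of a clustered member, Acsm4 among them, 10 had a probe set and 7 were bright enough to be tested. All 7 lie on the Acsm1 and Acsm3 side of Acsm2. Beyond Acsm5, Gp2 and Umod had probe sets but missed the filter on dim signals, so no gene on that side was tested. None of the 7 passed the threshold (limma, adjusted p of at least 0.459), which 0.217% of all 9200 genes tested passed, with log2 differences from -0.28 for Anks4b to 0.43 for Crym, and all 7 overlapped between groups. At an unadjusted p under 0.05 in limma, 0 of the 7 passed, against 12.2% of all genes. The predicted gene RGD1559600, which lies between Acsm2 and Acsm1 and overlaps Acsm1 in the gene table, had a log2 difference of 0.15 ± 0.13 (SE). Around Glyat, 6 of 28 other genes were tested and none passed (limma, adjusted p of at least 0.222), with 1 at an unadjusted p under 0.05, so both counts are near the share over all genes. That gene was Glyatl2, a glycine N-acyltransferase-like gene with signals of 546, 635 and 670 in momfluorothrin livers and 468, 499 and 424 in control livers. Its groups did not overlap, and the log2 difference of 0.41 ± 0.11 (SE; limma adjusted p = 0.222) was close in size to that of Glyat.

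**Figure D4:**
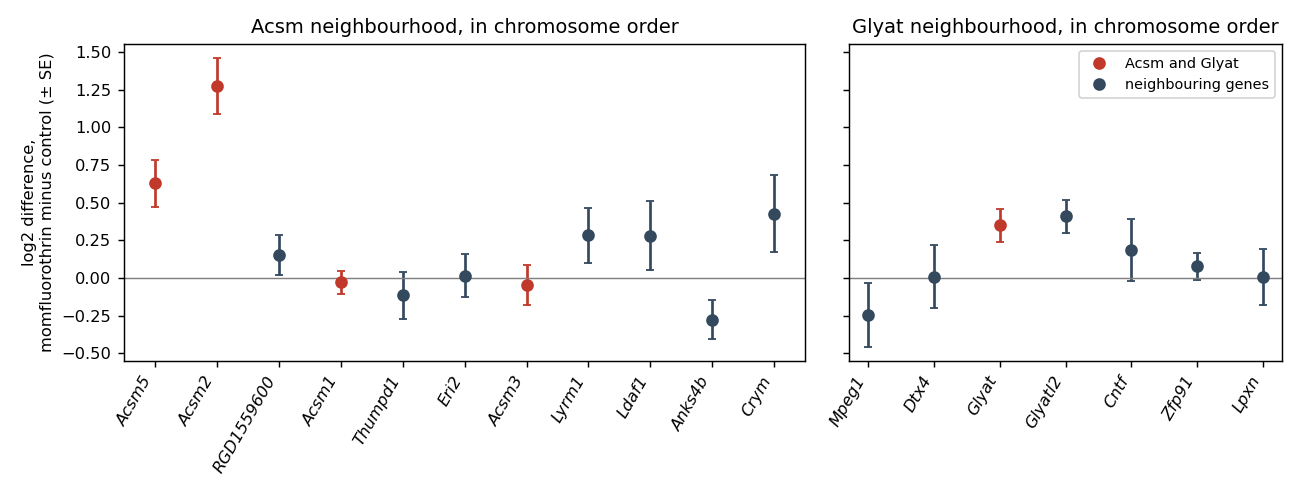
Log2 difference (momfluorothrin minus control, ± SE, n = 3 each) of the tested genes near the Acsm cluster and near Glyat, in chromosome order and not to scale in distance, with the 5 described genes in red. The higher values of Acsm5 and Acsm2 stand beside values of 0.15 and -0.03 for RGD1559600 and Acsm1, and Glyat and Glyatl2 stand side by side at 0.35 and 0.41.

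The genes around the Acsm and Glyat step were taken from 6 lists with 90 genes in all, of which 76 were tested. None passed the threshold (limma, adjusted p of at least 0.182), against 0.217% of all genes. At an unadjusted p under 0.05 in limma, 11 were higher and 8 lower, 19 of 76, against 12.2% of all genes. The groups did not overlap for 10 higher and 8 lower genes, against 9.04% and 9.23% of all genes. The median log2 difference was 0.02 over the 76 genes and -0.01 over all genes. The list medians below are small, and equal array medians would move each of them up by 0.17.

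The other acyl-CoA synthetases gave 0 calls among 12 tested genes, with a median log2 difference of -0.05. Acsl5, for long-chain fatty acids, had signals of 478, 611 and 507 in momfluorothrin livers and 948, 1111 and 673 in control livers, all treated values below all control values. Its log2 difference was -0.75 ± 0.18 (SE; limma adjusted p = 0.182), opposite in sign to that of Acsm2. Acss3, a short-chain synthetase, had signals of 1631, 1471 and 1519 in momfluorothrin and 1397, 1192 and 1233 in control livers (log2 difference 0.28 ± 0.09, SE; limma adjusted p = 0.303).

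Enzymes that join acyl groups to amino acids or split them off gave 0 calls among 5 tested genes, with a median of 0.20. That median rested on single arrays: it was 0.0063 without momfluorothrin replicate 2 and 0.067 without control replicate 3. Glyatl2 is given above. Baat, which conjugates bile acids with glycine or taurine, had signals of 4422, 3883 and 4534 in momfluorothrin and 5028, 4309 and 4872 in control livers, and the groups overlapped. Its log2 difference was -0.15 ± 0.09 (SE; limma adjusted p = 0.564), and it turned to 0.026 with equal array medians.

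Acyl-CoA thioesterases, which undo the activation step, gave 0 calls among 10 tested genes and a median of 0.03, which turned to -0.014 without momfluorothrin replicate 1 and -0.075 without control replicate 3. The peroxisomal Acot8 had signals of 161, 153 and 155 in momfluorothrin livers and 83.4, 125 and 76.9 in control livers. The treated values were tightly grouped above the controls, with a log2 difference of 0.75 ± 0.18 (SE, limma adjusted p = 0.186). Without control replicate 2 the difference was 0.96, which was past the threshold (limma, adjusted p = 0.0424). This was the only 1 of 15 alternatives past it, and the adjusted p in limma reached 0.420 in another. Them4 was near the array median, at 23.7, 26.2 and 28.0 in momfluorothrin and 46.7, 44.9 and 41.1 in control livers, with a log2 difference of -0.77 ± 0.20 (SE; limma adjusted p = 0.222).

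Genes that supply or break down glycine, the acceptor of the Glyat reaction, gave 0 calls among 16 tested genes and a median of 0.05. Dao, a D-amino acid oxidase that also acts on glycine, had signals of 413, 499 and 426 in momfluorothrin livers and 338, 359 and 286 in control livers. Gldc, the decarboxylase of the glycine cleavage system, had 232, 223 and 161 in momfluorothrin livers and 255, 315 and 351 in control livers. The groups did not overlap for either, with log2 differences of opposite sign. That of Dao was 0.45 ± 0.12 and that of Gldc -0.59 ± 0.17 (SE; limma adjusted p = 0.228 and 0.258).

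Coenzyme A synthesis, transport and breakdown gave 0 calls among 13 tested genes and a median of 0.11, which was 0.22 without control replicate 1 and turned to -0.025 without control replicate 3. Slc5a6, a carrier of pantothenate and other vitamins, had a log2 difference of 0.31 ± 0.11, and Ppcs, which acts on phosphopantothenate, one of 0.57 ± 0.22 (SE; limma adjusted p = 0.372 and 0.390). The Slc5a6 signals were 254, 255 and 277 in momfluorothrin livers, above the 236, 216 and 187 of control livers, whereas the Ppcs groups overlapped.

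The list for mitochondrial beta-oxidation, the other route open to an activated medium-chain acid, gave 0 calls among 20 tested genes and a median of 0.0031. It ran from -0.27 for Crot, a peroxisomal enzyme also in the list, to 0.30 for Echs1. The median turned to -0.034 without momfluorothrin replicate 1 and -0.040 without control replicate 3. Echs1, the short-chain enoyl-CoA hydratase, had signals of 1492, 1348 and 1477 in momfluorothrin livers and 1134, 1136 and 1240 in control livers, with a log2 difference of 0.30 ± 0.08 (SE; limma adjusted p = 0.233). Cpt2, which hands long-chain acyl groups back to coenzyme A, had a log2 difference of 0.24 ± 0.10 (SE; limma adjusted p = 0.409). Acadm, the medium-chain acyl-CoA dehydrogenase, was added for its substrate after the values were seen. It had signals of 3360, 2913 and 3263 in momfluorothrin and 3274, 3342 and 3258 in control livers, with overlapping groups and a log2 difference of -0.05 ± 0.08 (SE).

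**Figure D5:**
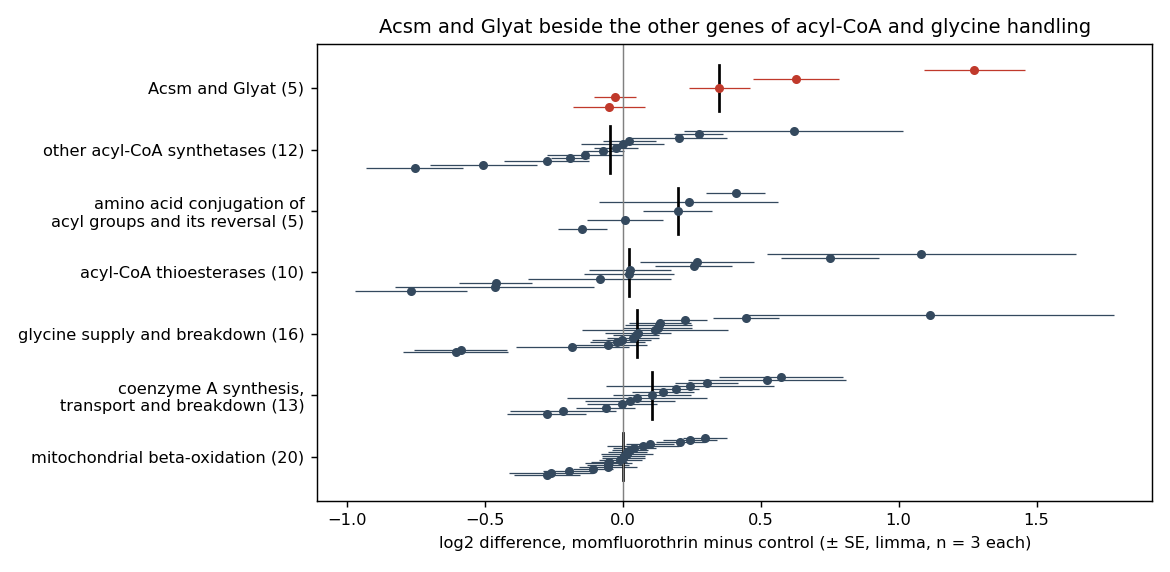
Log2 difference (momfluorothrin minus control, dots, ± SE from limma, n = 3 each) of the 5 described genes in red and of the 6 lists in dark blue, number of tested genes in brackets and vertical black lines at the medians. Acsm2 at 1.28 lies to the right of every listed gene. The nearest are Psat1 at 1.12 ± 0.67 and Acot1 at 1.08 ± 0.56 (SE), whose errors are wide and whose groups overlapped. The genes of the beta-oxidation list lie between -0.27 and 0.30.

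The genes most like each member over the 6 arrays were found by Pearson's r of the log2 signals among 9147 other named genes. Any gene that differs between the groups shares part of the pattern, r over 6 arrays is no test, and no p is given. The 5 most like Acsm2 were Ubl4a, Cnn3, Nit1, Ssr4 and Ces1d, with r from 0.998 to 0.985. Their own log2 differences were smaller than that of Acsm2, from 0.12 for Nit1 to 0.44 for Ssr4. Whamm (0.995), Selenoi (0.991) and Focad (0.988) were most like Acsm5, and Ptov1 (0.991), Ube2l3 (0.991) and Lclat1 (0.984) most like Glyat. Agmat (0.994), Thg1l (0.985) and Omd (0.982) were most like Acsm1, and Dennd4c (0.995), Edrf1 (0.993) and Yars2 (0.981) most like Acsm3. No gene was in more than 1 of these lists, which are too short to show whether members share like genes. Between the members themselves r was 0.983 for Acsm5 with Glyat, 0.739 for Acsm2 with Acsm5 and 0.677 for Acsm2 with Glyat. Pairs with Acsm1 or Acsm3 ran from -0.35 for Acsm2 with Acsm3 to 0.15 for Acsm5 with Acsm3.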

How the data were processed

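The authors deposited linear signal intensities for 31099 probe sets, which the submitters' processing notes credit to MAS5, with version and settings not given in the sources used here. Each array had been scaled to a common trimmed mean (2% left out at each end), and no further scaling was applied. Depth does not apply to arrays. The 57 Affymetrix control probe sets were left out, and probe sets above the array median on at least 3 of 6 arrays were kept (15778). Log2 signals, with no pseudocount, were fitted in R 4.3.3 with limma 3.58.1 (lmFit and eBayes with an intensity trend, 2-sided, Benjamini-Hochberg over all kept probe sets, threshold 0.05). The fit was tested on simulated data with independent noise and no offset in array medians between groups. The offset in the real arrays was therefore not covered. Gene names came from GEO's platform annotation (20826 probe sets with 1 symbol, 436 with several, 9780 with none), of which 20758 matched the GRCr8 gene table. A listed gene was represented by its brightest kept probe set. Probe sequences were not used, so hybridisation shared between Acsm genes was not tested. Every member was described, and per list up to 4 genes past the threshold, or else the 2 with the smallest p, plus Acadm. Psat1 and Acot1 were named for the size of their differences only. Predicted loci were left out of the search for like patterns. The members and lists were chosen with earlier results of these data known. The alternatives changed the filter, scaling, pseudocount (16), variance model, array weights, replicate block and probe set rule, and left out each array. The labels call the animals biological replicates and give no batch.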

Additional observations from a re-analysis of the deposited data

How the results depend on the processing

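The number of probe sets past the threshold, 27 as reported (21 higher, 6 lower), was 70 with median centring (65 higher, 5 lower), 44 with robust eBayes, 3 without an intensity trend, 15 with a replicate block and 5 to 28 with 1 array left out. Of the 5 Acsm and Glyat probe sets, 1 (Acsm2) was past it as reported and 0 without a filter, with the filter at the 70th percentile, without an intensity trend, with a replicate block, and with any 1 array left out (0 in each of the 6). The adjusted p of Acsm2 in limma ran from 0.0126 to 0.178 over the 15 alternatives. Listed pathway genes past the threshold numbered 0 to 1 with 1 array left out, the 1 being Acot8, and 0 otherwise. Acsm1 turned positive with quantile normalization (0.0035) and median centring (0.14), and ran from -0.073 to 0.023 with 1 array left out. Acsm3 turned positive with median centring (0.12) and ran from -0.17 to 0.053 with 1 array left out, and Baat was 0.026 with median centring. Where a count fell with an array left out, fewer samples entered the fit; the cause of the other changes was not tested. Acsm5 and Glyat stayed positive and short of the threshold in all 15 alternatives. No pairing of animals by replicate number was seen. Deviations from the group means correlated at -0.10, 0.10 and -0.065 for numbers 1, 2 and 3, and the best match shared the number for replicate 2 only. With 3 arrays a group these correlations cannot exclude a pairing. With 3 arrays a group, signals near the array median, such as Acsm2 in control livers and Them4, are the least certain.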
